A study of Mus musculus with 42 samples.

Results

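The genes described here are the members of the 4 mouse Hox clusters, chosen as every array probe whose platform symbol is Hoxa, Hoxb, Hoxc or Hoxd followed by a number alone. They were 38 of the 19057 genes that had a probe with a single symbol, 10 each in clusters A and B and 9 each in clusters C and D, and 57 probes carried their symbols. Where a gene had several probes, the probe with the highest mean signal over all arrays stood for it.

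The study followed mouse embryonic stem (ES) cells and 2 lots of germline cell-derived pluripotent stem cells, GPSC-A and GPSC-B, while they were turned towards hepatocytes, the main cell of the liver. Samples of each of the 3 lines were taken untreated, called day 0, and on days 2, 7, 14, 21 and 28 of culture as embryoid bodies (EBs), floating aggregates of cells, in a hepatic differentiation cocktail. Every line and day had 2 arrays, and primary hepatocytes of embryonic day 16 (E16) and postnatal day 1 (PN1) liver had 3 arrays each, which gave 42 arrays in 20 groups. The sources used here give neither strain, genotype, cocktail composition nor culture conditions. They also leave unsaid whether the arrays of a group stem from different cultures or animals; p-values therefore measure a spread between arrays that may be technical. Each GPSC lot is a single lot and the ES cells are a single line as far as the labels say.

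Hox genes code for transcription factors that bind DNA through a homeodomain and give cells their position along the head-to-tail axis. They lie side by side in clusters, and paralogues with low numbers are switched on early and towards the head, while those with high numbers follow later and towards the tail and the limb tips. In the embryo, retinoic acid, Wnt and Fgf signals and the caudal (Cdx) factors open the clusters, Polycomb proteins keep them silent and Trithorax proteins keep them active, and the TALE homeodomain proteins of the Pbx and Meis families bind DNA together with Hox proteins. The liver itself forms from foregut endoderm, in which most Hox genes are silent, whereas connective tissue and limb mesenchyme keep Hox expression into adult life.

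In the mouse genome cluster A lies on chromosome 6, cluster B on chromosome 11, cluster C on chromosome 15 and cluster D on chromosome 2. The promoters of 3 genes are shown because their changes frame the results: of the tested members Hoxa5 had the largest fall at day 2, Hoxb1 was no longer detected on any array by day 21, and Hoxd10 had the largest rise. Each runs from 250 bases before to 50 bases after a transcript start given by RefSeq on GRCm38.p6, on the gene's own strand; for Hoxd10 this start lies inside the full span that RefSeq gives the gene. Capitals in the Hoxb1 sequence mark a match to the joint Hox and Pbx site TGATNNAT.
Hoxa5, chr6:52204538-52204837, minus strand: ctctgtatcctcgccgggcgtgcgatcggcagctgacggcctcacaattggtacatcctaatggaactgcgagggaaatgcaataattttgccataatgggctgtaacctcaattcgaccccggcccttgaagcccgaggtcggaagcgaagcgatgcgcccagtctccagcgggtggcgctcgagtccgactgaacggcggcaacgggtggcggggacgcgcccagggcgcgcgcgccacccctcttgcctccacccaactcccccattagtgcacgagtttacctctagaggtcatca
Hoxb1, chr11:96365508-96365807, plus strand: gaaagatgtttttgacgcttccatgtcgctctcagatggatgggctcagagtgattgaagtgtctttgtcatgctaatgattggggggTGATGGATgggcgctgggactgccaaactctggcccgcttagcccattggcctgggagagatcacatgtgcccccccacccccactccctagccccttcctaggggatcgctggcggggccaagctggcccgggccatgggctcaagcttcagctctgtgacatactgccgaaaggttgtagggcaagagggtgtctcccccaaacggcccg
Hoxd10, chr2:74691641-74691940, plus strand: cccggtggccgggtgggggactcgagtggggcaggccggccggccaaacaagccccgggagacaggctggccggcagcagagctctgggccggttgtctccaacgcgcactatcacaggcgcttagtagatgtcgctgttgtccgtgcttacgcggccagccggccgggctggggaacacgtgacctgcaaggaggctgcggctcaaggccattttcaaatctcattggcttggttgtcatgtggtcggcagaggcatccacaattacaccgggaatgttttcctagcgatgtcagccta
The site in Hoxb1 reads TGATGGAT and begins 162 bases before that transcript start. RefSeq promoters were at hand for 22 of the members, with 24 entries, and 32851 entries for all genes. On both strands, TGATNNAT occurred in 16.67% of the Hox entries (Hoxa2, Hoxb1, Hoxb8 and Hoxd11) and in 8.846% of all entries. The TATA box TATAAA occurred in 16.67% of the Hox entries and in 13.62% of all, and the caudal site TTTATNG in 8.333% and 10.91%. The retinoic acid element NGNTCANNNNNNGNTCA, a direct repeat with 5 bases between its arms, was in 0 of the 24 Hox entries and in 0.8615% of all. Hox promoters had a median GC content of 57.67%, against 52.67% for all, and a median ratio of observed to expected CpG of 0.6263, against 0.3836.

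Levels are log2 fluorescence signals after background correction and quantile normalisation, and they compare samples for a probe, never one probe with another. A probe counted as detected on an array where its detection p-value, the deposited chance that a negative control probe is as bright, was under 0.01. Over the 42 arrays 8427 to 15123 probes were detected, and the median scanner signal was 109.466 to 157.654. Arrays of the same group correlated at 0.950 to 0.982 over the 10831 genes detected on at least 2 arrays. The lowest detected signal lay between 5.43 and 7.33 on the log2 scale, so levels near 5 are at background. Where a probe was detected on no array of the dimmer group, a difference is given as a bound ("at least N-fold"), the brighter group's mean against the lowest detected signal of the dimmer arrays or the probe's own signal there, whichever is higher. In these bulk samples fewer cells of a type and less RNA per cell cannot be told apart.

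Of the 38 members, 22 were detected on at least 2 of the 42 arrays and were tested, and 16 were not. Hoxa3, Hoxa6, Hoxa11, Hoxb4, Hoxb8, Hoxb9, Hoxb13, Hoxc4, Hoxc5, Hoxc11, Hoxc13, Hoxd1, Hoxd3, Hoxd4 and Hoxd12 were detected on 0 arrays, and Hoxc12 on 1 array. The most widely detected were Hoxa13 on 38 arrays, Hoxb7 on 35, and Hoxa5 and Hoxc6 on 32 each. Hoxb3, Hoxc8, Hoxd8, Hoxd11 and Hoxa10 came above background on 2 to 6 arrays each. In cluster D the probes of Hoxd9, Hoxd10 and Hoxd13 were detected on 24, 25 and 29 arrays and that of Hoxd12 on 0. A probe that is not detected does not show a silent gene, since a second probe of Hoxd9 was detected on 0 arrays.

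The number of Hox genes detected on an array fell at day 2 and rose again. It was 13.3 ± 2.58 (SD, n = 6 arrays over the 3 lines) at day 0, 5.83 ± 2.56 at day 2, 11.5 ± 3.94 at day 7, 16.7 ± 2.16 at day 14, 13.8 ± 0.753 at day 21 and 14.2 ± 1.72 at day 28. The 3 arrays of E16 hepatocytes detected 1, 2 and 2 Hox genes, and the 3 arrays of PN1 hepatocytes 1, 4 and 1. Of all probes, 23.8% to 33.4% were detected on the arrays of day 0, 21.8% to 29.7% at day 2, 26.5% to 32.7% at day 14, 21.8% to 25.5% in E16 and 18.6% to 20.5% in PN1 hepatocytes. The lowest detected signal was 5.43 to 6.42 at day 0, 5.70 to 6.75 at day 2, 6.18 to 6.74 in E16 and 6.98 to 7.33 in PN1. The part of these differences in the Hox counts was not tested. Of the day 2 arrays only the first of GPSC-B, with 11 genes, reached the range of day 0, whose lowest arrays detected 10 and 11.

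The balance of paralogues shifted over the same days. Of the 16 members in paralogue groups 9 to 13, which serve the trunk, tail and limbs, 4.17 were detected on a mean array at day 0 and 7.5 at day 14. Of the 7 members in groups 1 to 3, which serve the hindbrain and neck, the mean was 3 at day 0 and 2.83 at day 14. Of the 15 in groups 4 to 8 it was 6.17 and 6.33. By cluster, the mean of cluster D went from 1.17 of 9 genes at day 0 to 3.17 at day 14, and cluster C from 2.5 of 9 to 3. Cluster A went from 4.67 of 10 genes at day 0 to 6 at day 14 and was at 4.67 at day 28. Cluster B, with 5 of 10 genes at day 0, had 4.5 at day 14 and 3.5 at day 28.

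**Figure D1:**
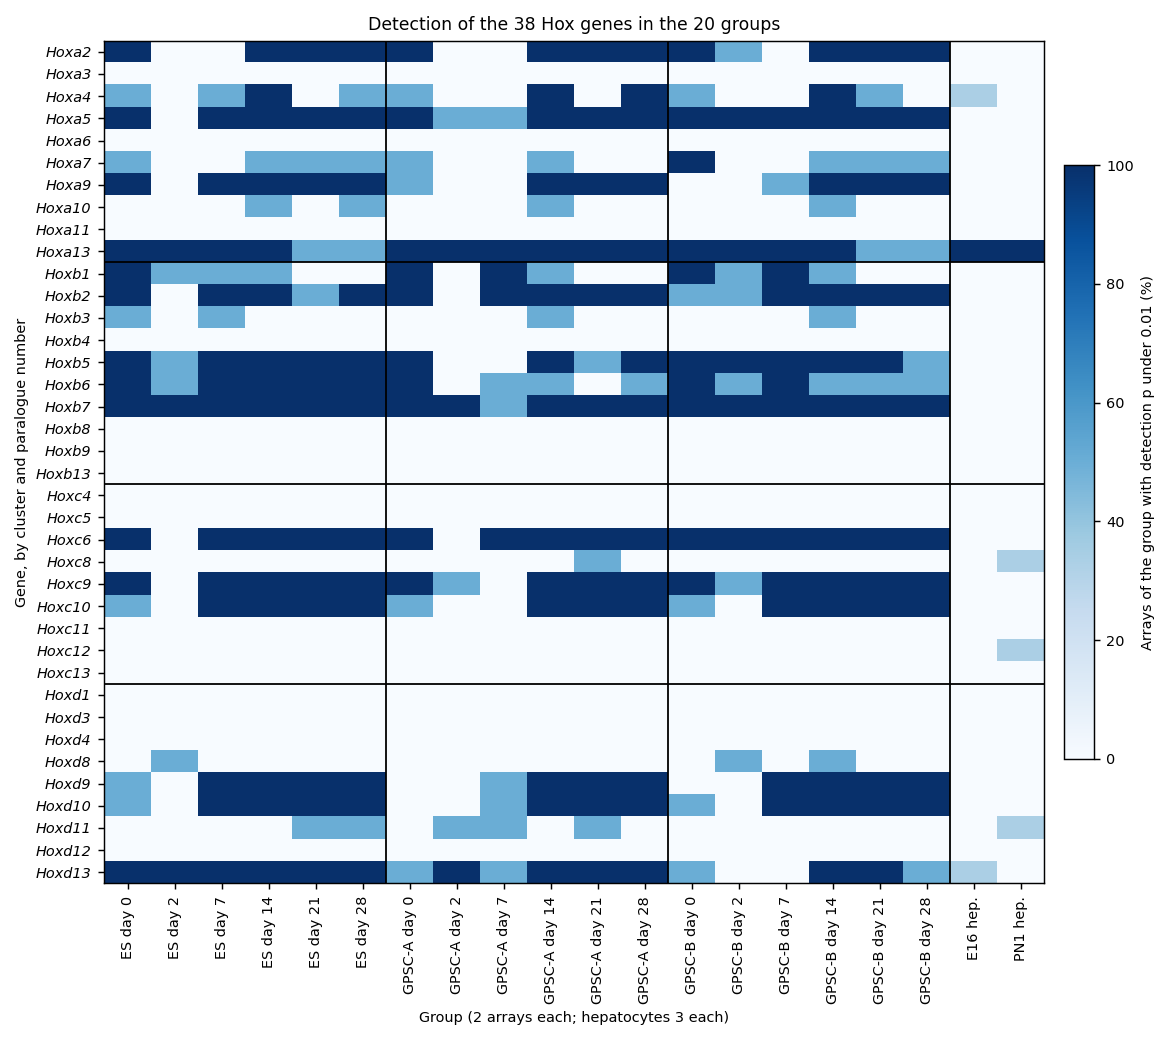
Detection of the 38 Hox genes (rows, by cluster and paralogue number) in the 20 groups (columns). Shade gives the share of a group's arrays with a detection p-value under 0.01; the columns of day 2 are sparse, those of both hepatocyte stages nearly empty, and day 14 is the fullest.

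Untreated cells of all 3 lines already had Hox signal. Hoxa5, which patterns the neck skeleton and the airway, lay at a log2 level of 8.77 and 9.64 on the ES arrays, 10.14 and 9.94 on those of GPSC-A and 9.54 and 9.24 on those of GPSC-B. Hoxb1, which sets the identity of a hindbrain segment, lay at 8.70 and 8.53 in ES cells, 8.30 and 6.94 for GPSC-A, and 8.11 with 6.81 for GPSC-B. Every untreated array detected both genes. In the ES cells 12 members were detected on both arrays, in GPSC-A and GPSC-B 10 each. No member differed between GPSC and ES cells at day 0 by an adjusted p under 0.05 and 2-fold (limma), where 1.64% of the 10831 genes tested were higher and 1.68% lower; the 2 widest differences were Hoxb1 at -1.08 (adjusted p = 0.171) and Hoxd9 at -1.06 (adjusted p = 0.125).

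Within 2 days of EB culture 9 of the 22 tested members fell and 0 rose, counting as changed an adjusted p under 0.05 with at least a 2-fold difference in the mean of the 3 lines. Of all 10831 genes tested, 3.95% fell and 1.49% rose by that rule. The 9 were Hoxa2, Hoxb1 and Hoxb2 of the hindbrain groups, Hoxa5, Hoxb5, Hoxb7 and Hoxc6 of the central groups, and Hoxa9 and Hoxc9 of the posterior ones. The median log2 change of the 22 tested members was -0.83, against 0.03 for all genes; a member that passed the detection filter only through a group where it is high had to differ somewhere, so this median is a description.

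Hoxa5 went from a lowest, median and highest log2 level of 8.77, 9.59 and 10.14 at day 0 to 4.62, 5.63 and 7.35 at day 2. The groups did not overlap, and only 3 of the 6 arrays of day 2 still detected it. Its log2 change was -3.85 ± 0.25 (SE; adjusted p = 3.42e-12). Hoxc6, a gene of the thoracic region, went from 7.60, 8.89 and 9.53 to 4.89, 5.54 and 7.16, also without overlap, a change of -2.94 ± 0.22 (adjusted p = 5.5e-11). The arrays that kept Hoxc6 at day 2 were the 2 of GPSC-B, at 6.998 and 7.16.

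Hoxa2, which patterns the hindbrain and the second branchial arch, went from 6.52, 7.62 and 8.69 at day 0 to 4.69, 5.30 and 6.17 at day 2, and 1 of 6 arrays still detected it. The change was -2.24 ± 0.24 (adjusted p = 4.53e-08). Hoxb1 had a lowest, median and highest level of 6.81, 8.21 and 8.70 at day 0 and 5.29, 5.85 and 6.82 at day 2, which touch at the ends, with a change of -1.95 ± 0.27 (adjusted p = 4.03e-06). Hoxb2, its neighbour with a role in hindbrain motor neurons, lay at 5.73, 7.02 and 7.48 and then at 5.03, 5.45 and 6.41, a change of -1.27 ± 0.22 (adjusted p = 0.000141). For Hoxb2 the groups overlapped through the second GPSC-B array of day 0, which did not detect it.

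Hoxb5, known for a part in gut innervation by neural crest, went from 7.39, 8.06 and 8.57 to 5.40, 6.18 and 6.83 without overlap, a change of -1.82 ± 0.25 (adjusted p = 4.15e-06). Hoxb7 stayed detected on all 6 arrays of day 2 and went from 7.89, 8.56 and 8.91 to 6.53, 6.94 and 8.04, a change of -1.44 ± 0.22 (adjusted p = 1.69e-05), with 1 array of day 2 inside the range of day 0. Hoxc9, which sets thoracic motor neuron identity, went from 6.71, 7.56 and 8.21 to 5.29, 5.67 and 6.40, again without overlap, a change of -1.73 ± 0.23 (adjusted p = 2.19e-06). Hoxa9, better known from blood progenitors, was near background on both days, detected on 3 and then 0 of 6 arrays, and was called lower (adjusted p = 0.00501) with no bound above 1; without the first GPSC-A array of day 0 it was under 2-fold (adjusted p = 0.0361).

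The number of members called lower at day 2 differed between the 3 lines, which is no test of the size of the fall. Tested as an interaction of line and day, 0 members differed between GPSC and ES cells in the change to day 2. By that test, picked after the values had been seen, 0.785% of all genes were higher and 0.111% lower. In ES cells 9 members fell, where 5.56% of all genes did, GPSC-A had 8 falls, where 2.39% of genes fell, and GPSC-B had 4, where 1.5% fell. No member rose in any line, where 2.58%, 0.572% and 0.175% of all genes did. The 4 in GPSC-B were Hoxa2 at -1.69, Hoxa5 at -2.58, Hoxb1 at -1.76 and Hoxc6 at -2.06 on the log2 scale. At day 2 GPSC cells were called higher than ES cells in Hoxa5 (adjusted p = 0.045) and in Hoxc6 (adjusted p = 0.022), both with no bound above 1, where 2.95% of all genes were higher and 1.13% lower. The ES arrays of day 2 detected neither gene, with Hoxa5 at 5.04 and 4.62 and Hoxc6 at 5.11 and 4.93.

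Mesenchyme and fibroblast markers moved at the same step. Of 15 tested markers 5 fell at day 2 and 0 rose, where 3.95% of all genes fell and 1.49% rose. Col1a1, a chain of fibrillar collagen, fell by 3.61 ± 0.40 on the log2 scale (adjusted p = 9.13e-08), the mesenchyme transcription factors Prrx1 by 2.41 ± 0.21 (adjusted p = 5.94e-10) and Twist2 by 2.36 ± 0.18 (adjusted p = 7.54e-11), and the surface protein Thy1 by 1.70 ± 0.29 (adjusted p = 9.66e-05). The fifth was Meox1, a factor of the somites, at -1.34, at least 1.12-fold lower. The summed level of the 17 markers with a probe was 3647 to 6954 at day 0 and 1185 to 2565 at day 2. Of the same list Col3a1, Lum, Postn, Pdgfra, Meox2, Tcf21, Osr1 and Foxf1 were detected on no array of day 0. The part of such cells in the Hox values was not tested.

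**Figure D2:**
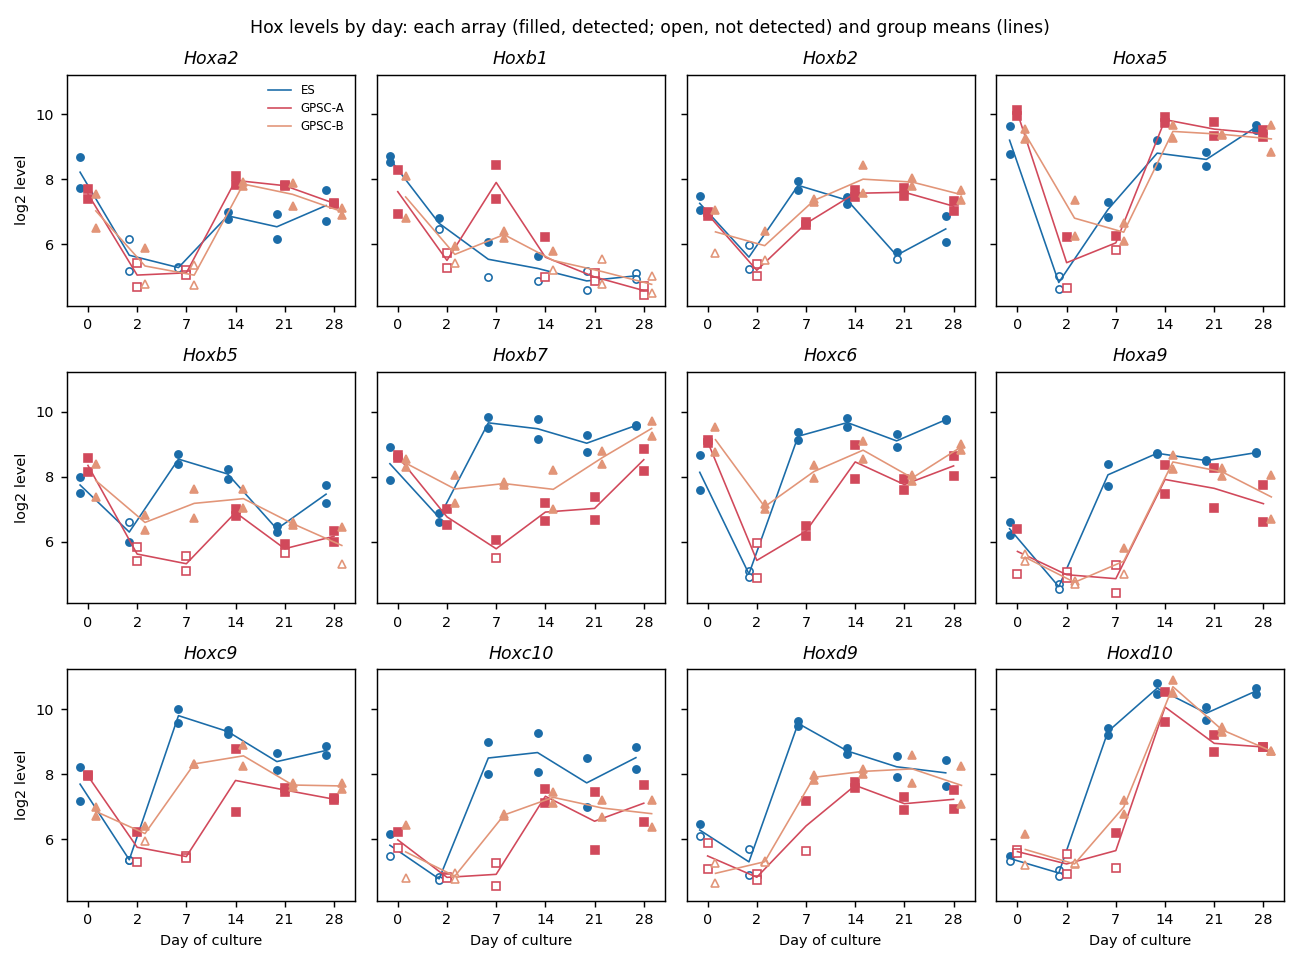
Log2 level of 12 Hox genes on each array of the ES, GPSC-A and GPSC-B lines by day, with 1 colour per line. Filled points are detected (p under 0.01) and open points are not. Hoxa5, Hoxc6 and Hoxa2 drop at day 2 and return, Hoxb1 drops, is detected on 5 arrays at day 7 and on none from day 21, and Hoxd9, Hoxd10, Hoxa9 and Hoxc10 rise from background between days 2 and 14.

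After day 2 the genes came back at different times. In the mean of the 3 lines, 6 of the 9 tested members of the posterior groups were above day 0 at day 14. At day 7 Hoxd9 and Hoxd10 were higher than at day 0 and Hoxa2, Hoxa5 and Hoxb1 lower, where 6.68% of all genes were higher and 6.67% lower. At day 14 the posterior Hoxa9, Hoxc9, Hoxc10, Hoxd9, Hoxd10 and Hoxd13 were higher in that mean and Hoxb1 alone was lower, where 12.7% of all genes were higher and 10.9% lower. By line, GPSC-A lacked Hoxc9 and Hoxc10 among the higher and also had Hoxb5, Hoxb6 and Hoxb7 lower, where 10.2% and 8.02% were. ES cells also had Hoxa10, Hoxb7 and Hoxc6 higher and Hoxa2 lower, where 13% and 11.1% were. GPSC-B also had Hoxb2 higher, where 11.8% were. Calls by line are no test of a difference between the lines. In the mean of the 3 lines 5 were higher and 3 lower at day 21, where 16.1% and 14.7% of all genes were. By line, day 21 had 4 higher and 4 lower in ES cells, where 17% and 15.6% were. It had 3 and 5 in GPSC-A, where 14% and 11.8% were, and 5 and 3 in GPSC-B, where 14.8% and 14.2% were. At day 28 the mean of the 3 lines had 5 higher and 2 lower, where 17.2% and 16.1% were. All 5 genes higher at day 28 were in paralogue groups 9 to 13, in which 9 were tested. In groups 4 to 8 none of 9 tested members was higher and 1 was lower, and in groups 1 to 3 none of 4 was higher and 1 was lower. The days share the untreated arrays, so their changes against day 0 are not independent of each other.

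Hoxd10, which patterns the lumbar cord and the limbs, had the largest rise. Its lowest, median and highest log2 level was 5.22, 5.54 and 6.16 at day 0, 4.86, 5.15 and 5.55 at day 2, 5.11, 6.99 and 9.43 at day 7, 9.60, 10.50 and 10.90 at day 14, 8.69, 9.36 and 10.08 at day 21, and 8.70, 8.84 and 10.64 at day 28. Day 0 and day 2 were at background, the arrays of day 7 spread over the whole span, and from day 14 every array lay above every array of day 0. The log2 change against day 0 was 4.89 ± 0.19 (adjusted p = 8.14e-18) at day 14 and 3.79 ± 0.19 (adjusted p = 1.11e-15) at day 28. Between days 14 and 28 it fell by 1.10 ± 0.19 (adjusted p = 4.86e-05), a step at which 7.11% of all genes fell and 7.78% rose.

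Hoxd9, the next gene towards the head in the cluster, had 4.66, 5.58 and 6.46 at day 0, 5.63, 7.91 and 9.65 at day 7, 7.57, 8.09 and 8.80 at day 14 and 6.93, 7.58 and 8.45 at day 28. It was detected on 1 of 6 arrays at day 0 and on 5 of 6 at day 7, and days 14 and 28 did not overlap with day 0. The change was 2.38 ± 0.24 (adjusted p = 8.89e-09) at day 7, 2.57 ± 0.24 (adjusted p = 9.12e-10) at day 14 and 2.06 ± 0.24 (adjusted p = 2.89e-08) at day 28. Hoxd13, at the tail end of the cluster and needed for digits and the genital tubercle, rose later: 5.79, 6.18 and 6.86 at day 0, 5.23, 5.78 and 7.81 at day 7, 7.96, 8.43 and 9.30 at day 14 and 6.0003, 7.28 and 8.34 at day 28. Its change was 2.41 ± 0.26 (adjusted p = 8.35e-09) at day 14 and 1.01 ± 0.26 (adjusted p = 0.00139) at day 28, when the arrays overlapped with day 0. The day 28 change of Hoxd13 was under 2-fold, at 0.79 to 0.99, without the first ES array of day 0, the second ES array of day 28, the second GPSC-A array of day 0, the first GPSC-A array of day 28 or the first GPSC-B array of day 28.

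Hoxa9 lay at 5.01, 5.92 and 6.60 at day 0, 4.45, 5.55 and 8.40 at day 7, 7.47, 8.51 and 8.74 at day 14, 7.04, 8.27 and 8.51 at day 21, and 6.61, 7.90 and 8.76 at day 28. From day 14 it was detected on every array and above all arrays of day 0, with a change of 2.48 ± 0.27 (adjusted p = 8.78e-09) at day 14 and 1.88 ± 0.27 (adjusted p = 6.29e-07) at day 28. Hoxc10, a gene of the lumbar region, lay at 4.80, 5.95 and 6.43 at day 0, 4.58, 6.75 and 8.997 at day 7, 7.11, 7.49 and 9.25 at day 14 and 6.38, 7.44 and 8.84 at day 28. Its change was 1.95 ± 0.31 (adjusted p = 7.62e-06) at day 14 and 1.66 ± 0.31 (adjusted p = 4.63e-05) at day 28, when 1 array still lay within the range of day 0. Hoxc9 was 1.06 ± 0.23 (adjusted p = 0.000348) above day 0 at day 14, with arrays at 6.85 to 9.37 that overlapped with 6.71 to 8.21. That change of Hoxc9 was under 2-fold without the first ES array of day 0 (0.89), the second GPSC-A array of day 14 (0.74) or the second GPSC-B array of day 14 (0.96).

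Hoxb1 took the opposite course. Its lowest, median and highest level went from 6.81, 8.21 and 8.70 at day 0 to 5.02, 6.30 and 8.43 at day 7, 4.89, 5.43 and 6.23 at day 14, 4.59, 5.004 and 5.56 at day 21, and 4.45, 4.83 and 5.14 at day 28. It was detected on 5 arrays at day 7, 3 at day 14 and 0 at days 21 and 28. At day 28 the fitted log2 change was -3.10 ± 0.27 (adjusted p = 7.12e-11), and Hoxb1 was at least 3.91-fold lower.

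The other genes of cluster B ended at different levels. Hoxb5 lay at 7.39, 8.06 and 8.57 at day 0, 6.80, 7.33 and 8.25 at day 14, 5.66, 6.40 and 6.61 at day 21 and 5.32, 6.41 and 7.74 at day 28, a change of -1.48 ± 0.25 (adjusted p = 1.03e-05) at day 28. Of the day 28 arrays only the first ES array, at 7.74, lay within the range of day 0. Hoxb6 lay at 6.34, 6.69 and 7.51 at day 0 and 5.73, 6.41 and 6.85 at day 28, and its only call against day 0 in the 3 lines together was at day 21 (-1.02), which came under 2-fold without any one of 6 arrays (-0.87 to -0.998). Hoxb2 was back at 6.60, 7.35 and 7.95 by day 7 and at 6.08, 7.18 and 7.68 by day 28. Hoxb7 lay at 6.63, 7.70 and 9.78 at day 14 and at 8.19, 9.42 and 9.70 at day 28. In the mean of the 3 lines it rose by 1.19 ± 0.22 (adjusted p = 6.91e-05) between those days. At day 28 that mean was 0.71 ± 0.22 above day 0 (adjusted p = 0.00636), under 2-fold. The lines differed in its course. Against day 0, Hoxb7 was called higher in ES cells already at days 7 and 14. In GPSC-A it was called lower at days 7, 14 and 21, and in GPSC-B it was called, as higher, at day 28 alone.

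Hoxa5 and Hoxc6 were not called against day 0 at day 28 in the mean of the 3 lines (-0.13 and 0.22), although Hoxc6 was higher in the ES cells taken alone. Hoxa5 stayed low at day 7, at 5.83, 6.46 and 7.30, and reached 8.41, 9.47 and 9.92 at day 14 and 8.83, 9.51 and 9.66 at day 28, within the range of day 0. Hoxc6 lay at 6.17, 8.16 and 9.37 at day 7, when it was called higher than at day 0 in ES cells and lower in GPSC-A. It stood at 8.03, 8.92 and 9.76 at day 28. Hoxa2 was detected on 0 of 6 arrays at day 7, at 4.75, 5.24 and 5.36, at least 3.3-fold under day 0 (-2.44 on the log2 scale), and on all 6 at day 14, at 6.77, 7.81 and 8.11. Hoxa4 and Hoxa7, central genes of the cluster, were detected on 3 and 4 of 6 arrays at day 0, on 0 at day 2 and on 6 and 3 at day 14. Neither was called in the 3 lines together against day 0. Both were at -0.71 at day 2, under 2-fold. With replicate numbers as blocks the limma adjusted p was 0.0434 for Hoxa4 and 0.0188 for Hoxa7. Hoxa10, a gene of the lumbar region and the uterus, was detected only on 3 arrays of day 14, where its highest level was 5.82, and on 1 array of day 28.

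Measured from day 2, a comparison added after these values had been seen, 8 members were higher and 0 lower at day 7, where 8.58% of all genes were higher and 6.06% lower. They were Hoxb2 and the central to posterior Hoxb6, Hoxc6, Hoxa9, Hoxc9, Hoxc10, Hoxd9 and Hoxd10. At day 14 it was 11 members, where 14.7% of all genes were higher and 12% lower, with Hoxa5 at 3.67 and Hoxa2 at 2.21 now among them. Hoxd10 was at least 20.7-fold above day 2 at day 14 (5.31 ± 0.19 on the log2 scale, adjusted p = 3.1e-18). The step from day 7 to day 14, also added then, raised 7 members, where 5.74% of all genes rose: Hoxa2 (at least 3.23-fold), Hoxa5 (2.87), Hoxa9 (2.25), Hoxc6 (1.07), Hoxc10 (1.04), Hoxd10 (3.14) and Hoxd13 (2.36 on the log2 scale). The same step lowered Hoxb1 (-1.12) and Hoxb6 (-1.23), where 2.64% of all genes fell.

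**Figure D3:**
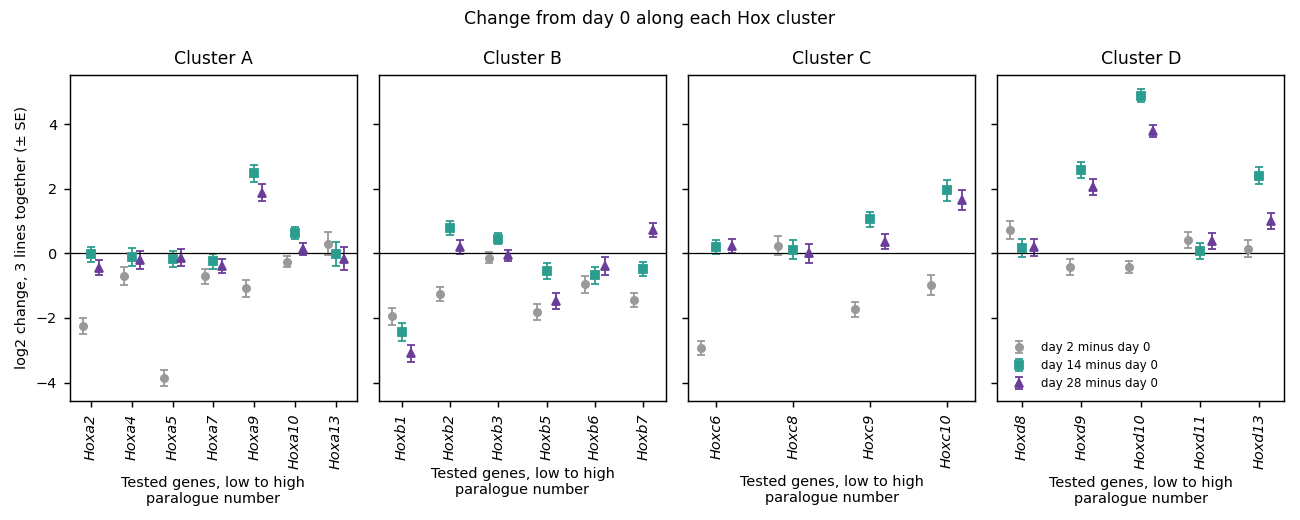
Log2 change of the 22 tested Hox genes against day 0 at days 2, 14 and 28, in the mean of the 3 lines, ordered by cluster and paralogue number, with standard errors. At day 2 no gene is called higher; at days 14 and 28 the called rises are in paralogues 9 to 13, with Hoxd10 at 4.89 and 3.79, and Hoxb1 is the deepest fall.

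Mesenchyme markers rose over the days on which the posterior genes rose. Of 15 tested markers, 10 were higher and 1 (Thy1) was lower at day 14 than at day 0, and 11 were higher and 0 lower at day 28. Of all genes 12.7% were higher and 10.9% lower at day 14, and 17.2% and 16.1% at day 28. Lum, a matrix proteoglycan, was at least 64.5-fold higher at day 28 (6.87 ± 0.24 on the log2 scale), Dcn, another proteoglycan, rose by 5.54 ± 0.34, Tcf21, a factor of the mesenchyme of organs, was at least 4.76-fold higher and Col3a1, a fibrillar collagen, at least 2.68-fold. The summed level of the list was 5392 to 14370 at day 14 and 15034 to 28239 at day 28. Their part in the Hox values was not tested. Of markers of other cells, 5 of 6 tested for kidney and lateral mesoderm were higher at day 14 and 2 at day 28, with 0 lower. Of 8 for hindbrain and spinal cord 2 were higher and 1 lower at day 14, and 3 and 0 at day 28, and of 15 for blood 5 and 0, and 3 and 1, against the same shares of all genes.

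The 3 lines differed most at day 7. GPSC cells, as the mean of both lots, were lower than ES cells in 10 of the 22 tested members and higher in Hoxb1, where 4.24% of all genes were lower and 4.25% higher. The 10 were Hoxa9, Hoxb5, Hoxb6, Hoxb7, Hoxc6, Hoxc9, Hoxc10, Hoxd9, Hoxd10 and Hoxd13, from all 4 clusters and from paralogue groups 5 to 13. The number stayed at 10 whichever single array of day 7 was left out.

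Hoxd10 lay at 9.20 and 9.43 on the ES arrays of day 7, at 6.20 and 5.11 on the GPSC-A arrays and at 6.78 and 7.21 on the GPSC-B arrays. The ES arrays stood above all others, and the difference of GPSC to ES was -2.99 ± 0.29 (adjusted p = 1.23e-08). Hoxc9 lay at 9.58 and 10.02 in ES cells, 5.51 and 5.44 in GPSC-A, where it was not detected, and 8.31 and 8.33 in GPSC-B, a difference of -2.90 ± 0.35 (adjusted p = 4.43e-07). Hoxb7 lay at 9.49 and 9.83, 6.07 and 5.51, and 7.76 and 7.83, in the same order of lines, a difference of -2.86 ± 0.33 (adjusted p = 2.15e-07). Both genes formed 3 separate levels, with ES highest and GPSC-A lowest.

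Hoxb6, a thoracic gene, lay at 9.17 and 9.11 in ES cells, 5.91 and 4.87 for GPSC-A and 7.72 and 7.22 for GPSC-B (-2.71 ± 0.41, adjusted p = 1.85e-05). Hoxc6 lay at 9.12 and 9.37, 6.49 and 6.17, and 7.95 and 8.37 (-1.998 ± 0.33, adjusted p = 7.03e-05). Hoxb5 lay at 8.40 and 8.69, 5.56 and 5.10, and 7.63 and 6.74 (-2.28 ± 0.38, adjusted p = 7.23e-05). These 3 genes, called on the same arrays, kept the order ES, GPSC-B, GPSC-A on every array, which is a description.

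Among the posterior genes Hoxa9 lay at 7.72 and 8.40 in ES cells, 5.30 and 4.45 for GPSC-A and 5.80 and 5.02 for GPSC-B, so that both lots were at or near background (-2.92 ± 0.40, adjusted p = 4.76e-06). Hoxc10 lay at 8.997 and 8.001, 5.27 and 4.58, and 6.78 and 6.72 (-2.66 ± 0.47, adjusted p = 0.000185). Hoxd9 lay at 9.48 and 9.65, 7.19 and 5.63, and 7.98 and 7.83 (-2.40 ± 0.37, adjusted p = 2.49e-05). Hoxd13 was detected on both ES arrays, at 7.28 and 7.81, on 1 GPSC-A array, at 6.08 beside 5.48, and on neither GPSC-B array, at 5.47 and 5.23 (-1.98 ± 0.39, adjusted p = 0.000582). In all 4 genes the ES arrays lay above every GPSC array. The genes had been called on these same arrays, so the lack of overlap describes them and adds no support. How many of all genes separate in this way was not counted.

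Hoxb1 ran the other way, at 6.08 and 5.02 on the ES arrays, 8.43 and 7.38 for GPSC-A and 6.19 and 6.42 for GPSC-B, a difference of 1.56 ± 0.40 (adjusted p = 0.00948). The lines did not overlap, yet the adjusted p was 0.0776 with median scaling in place of quantile normalisation (1.70), 0.403 without the second ES array of day 7 (1.03) and 0.0549 without the first GPSC-A array (1.30).

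Taken by lot, also a comparison added after the values had been seen, GPSC-A was lower than ES cells at day 7 in the same 10 members, where 3.87% of all genes were, and higher in Hoxb1 by 2.36, where 3.96% were higher. Hoxc9 was at least 15.6-fold lower in GPSC-A (-4.33 ± 0.40 on the log2 scale, adjusted p = 4.75e-09), Hoxb5 at least 6.55-fold, Hoxc10 at least 6.35-fold and Hoxa9 at least 4.69-fold. GPSC-B was lower in 7, namely Hoxa9, Hoxb6, Hoxb7, Hoxc9, Hoxd9, Hoxd10 and Hoxd13, where 3.01% of all genes were, and higher in 0, where 3.06% were. The 2 lots also differed from each other at day 7. GPSC-B was higher than GPSC-A in Hoxc9 by 2.84 (adjusted p = 0.000151; at least 5.6-fold), in Hoxb6 by 2.08 (adjusted p = 0.0387), in Hoxb7 by 2.002 (adjusted p = 0.00599) and in Hoxc6 by 1.83 (adjusted p = 0.0161), where 0.185% of all genes were higher and 0.185% lower. Between the lots no member was called at day 14, where 0.138% of all genes were higher and 0.138% lower, or at day 28, where 0.259% and 0.102% were. At day 21 Hoxb7 was higher in GPSC-B by 1.56, where 0.545% of all genes were higher and 0.628% lower.

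**Figure D4:**
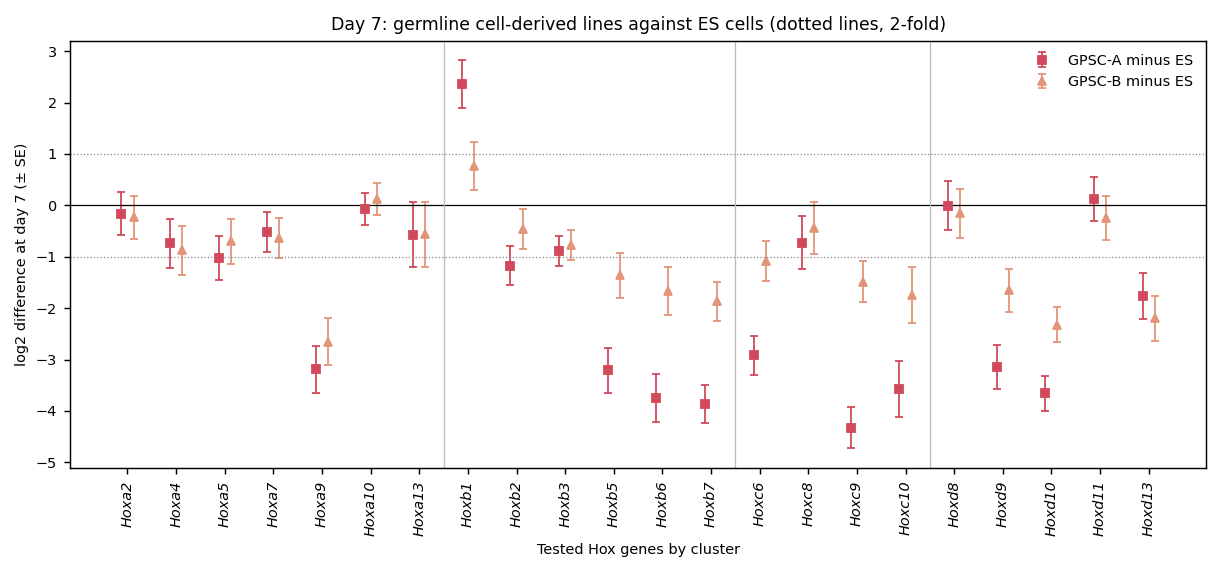
Difference in log2 level at day 7 between GPSC-A and ES cells and between GPSC-B and ES cells for the 22 tested Hox genes, with standard errors. Most central and posterior genes lie below 0, further in GPSC-A (Hoxc9 at -4.33) than in GPSC-B (Hoxc9 at -1.48), and Hoxb1 lies above 0.

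Set against their own untreated cells, ES cells at day 7 were higher in 8 members: Hoxd10 (3.90 on the log2 scale), Hoxd9 (3.27), Hoxb6 (2.74), Hoxc10 (2.68), Hoxc9 (2.10), Hoxa9 (1.65), Hoxb7 (1.26) and Hoxc6 (1.11), where 7.76% of all genes were higher. They were lower in Hoxa2, Hoxa5 and Hoxb1, where 7.94% of all genes were lower. GPSC-A cells at day 7 were higher in 0 members, where 4.42% of all genes were, and lower in 7, where 4.14% were: Hoxa5 (-3.99), Hoxb5 (at least 5.73-fold), Hoxb7 (-2.84), Hoxc6 (-2.75), Hoxc9 (at least 4.33-fold), Hoxa2 (at least 3.29-fold) and Hoxb6 (-1.75). GPSC-B cells were higher in Hoxd9 (at least 4.41-fold), Hoxc9 (1.46) and Hoxd10 (1.30), where 5.92% of all genes were higher, and lower in Hoxa2 and Hoxa5, where 6.03% were lower. Hoxb6, Hoxb7, Hoxc6 and Hoxc9 thus fell from day 0 in GPSC-A and rose in ES cells. Tested as an interaction of line and day, the change to day 7 was lower in GPSC than in ES cells for 8 members and higher for Hoxb1, where 1.8% of all genes were lower and 1.86% higher. For the change to day 28 it was lower for Hoxa10, Hoxc6 and Hoxd10, where 2.42% of all genes were lower and 1.68% higher.

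Other cell type markers differed between the lines on the same day. The summed level of the mesenchyme markers was 4752 to 5754 in ES cells, 1398 to 1821 in GPSC-A and 2395 to 2806 in GPSC-B, and 6 of 15 tested markers were lower in GPSC cells, where 4.24% of all genes were, among them Lum, at least 11.2-fold, and Tcf21, at least 5.88-fold. The summed level of 12 pluripotency markers was 3502 to 4828 in ES cells, 25975 to 36551 in GPSC-A and 10227 to 11630 in GPSC-B, with 6 of 11 tested higher in GPSC cells, where 4.25% of all genes were, among them Dnmt3l by 4.46 and Dppa5a by 4.197. That of the blood markers was 20402 to 22529, 1567 to 1934 and 2330 to 3241, with 6 of 15 lower in GPSC cells. Of 6 kidney and lateral mesoderm markers 4 were lower and Lhx1 was higher. The order of the lines in these sums was that of Hoxb6, Hoxb7, Hoxc6 and Hoxc9, reversed for pluripotency, and their part in the Hox values was not tested.

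By day 14 most of the gap had closed. Only Hoxb7 (-2.21) and Hoxc9 (-1.12, adjusted p = 0.0424) were lower in GPSC than in ES cells, where 3.88% of all genes were lower, and 0 members were higher, where 2.65% were. At day 21 Hoxb7 (-1.22) and Hoxc6 (-1.24) were lower, where 4.63% were, and Hoxa2 (1.13) and Hoxb2 were higher, where 3.16% were. Hoxb2 lay at 5.77 and 5.57 on the ES arrays of day 21, at 7.48 and 7.73 in GPSC-A and at 8.04 and 7.80 in GPSC-B, a difference of 2.09 ± 0.33 (adjusted p = 5.91e-05) with all GPSC arrays above both ES arrays.

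At day 28, 8 members were lower in GPSC than in ES cells, where 4.98% of all genes were lower, and 0 were higher, where 3.14% were. The 8 were Hoxa9 (-1.46), Hoxa10, Hoxb5 (-1.43), Hoxc6 (-1.12), Hoxc9 (-1.29), Hoxc10 (-1.56), Hoxd10 (-1.77) and Hoxd13 (-1.54). Hoxd10 lay at 10.64 and 10.46 in ES cells, 8.83 and 8.85 for GPSC-A and 8.72 and 8.70 for GPSC-B, without overlap (± 0.29, adjusted p = 8.49e-05). Hoxc6 lay at 9.74 and 9.76, 8.03 and 8.64, and 9.02 and 8.83, and Hoxc9 at 8.60 and 8.86, 7.20 and 7.27, and 7.74 and 7.54. The ES arrays were the highest in all of these, but the calls were fragile apart from Hoxd10: with median scaling it alone passed, and leaving out either ES array of day 28 or the second GPSC-B array left 2 of the 8. With replicate numbers as blocks Hoxa9 was no longer called (-1.13, adjusted p = 0.0542). Hoxa10 lay at 5.90 and 5.70 on the ES arrays, 1 of them detected, and was detected on no GPSC array, so its difference has no bound above 1 (adjusted p = 0.0118).

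With each line compared with itself, ES cells at day 28 were higher than at day 0 in 9 members, where 17.4% of all genes were higher, and lower in 2, where 16.7% were lower. Hoxd10 had the largest change in ES cells (5.13 ± 0.34, adjusted p = 1.53e-12), followed by Hoxc10 (2.69), Hoxa9 (2.33), Hoxd9 (1.76), Hoxd13 (1.67) and Hoxc6 (1.61 ± 0.38, adjusted p = 0.00108). Hoxb7 (1.18) and Hoxc9 (1.03) were near the threshold, Hoxa10 was called with no bound above 1 (adjusted p = 0.00377), Hoxb1 was at least 6.25-fold lower, and Hoxa2 was at -1.02 (adjusted p = 0.0494). Without the first ES array of day 0 the count of higher members was 5, with Hoxb7, Hoxc6, Hoxc9 and Hoxd13 no longer called, and Hoxa2 was at -0.55 (adjusted p = 0.440). Hoxa2 was also at -0.55 without the second ES array of day 28 (adjusted p = 0.454).

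GPSC-A cells at day 28 were higher than at day 0 in Hoxd10, at least 6.56-fold (3.21 ± 0.34 on the log2 scale, adjusted p = 2.03e-08), Hoxd9, at least 2.15-fold, and Hoxa9 (1.47, adjusted p = 0.014), where 15.4% of all genes were higher. They were lower in Hoxb1, at least 3.41-fold, and Hoxb5 (-2.18), where 13.6% were lower. The rise of Hoxa9 in GPSC-A was 0.76 (adjusted p = 0.331) without the second array of day 0 and 0.90 (adjusted p = 0.243) without the first of day 28, and that of Hoxd9 1.34 (adjusted p = 0.0512) without the first of day 0. Blocked by replicate number, Hoxc10 was also called in GPSC-A (1.12, adjusted p = 0.0215).

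GPSC-B cells at day 28 were higher in Hoxd10 (3.02 ± 0.34, adjusted p = 4.3e-08), Hoxd9, at least 3.71-fold, Hoxa9, at least 3.06-fold, Hoxb2 (1.14, adjusted p = 0.0202) and Hoxb7 (1.06, adjusted p = 0.0268), where 16.9% of all genes were higher. They were lower in Hoxb1, at least 2.8-fold, and Hoxb5 (-1.99), where 15.3% were lower. Without the second GPSC-B array of day 0 the count of higher members was 3, as Hoxb2 (0.48) and Hoxb7 (1.17, adjusted p = 0.0587) were lost. Without the first of day 28 it was 2, as Hoxa9 (1.18, adjusted p = 0.0978), Hoxb2 (0.99) and Hoxb7 (0.84) were lost. The loss of Hoxb7 alone followed when the first array of day 0 was left out (0.95). With the replicate block Hoxc10 was called here too (1.17, adjusted p = 0.0158).

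Primary hepatocytes had Hox signal near background. In 6 arrays, only the probe of Hoxa13, a gene of the digits, hindgut and genital tubercle, was detected throughout, at 6.92, 7.74 and 7.07 in E16 and at 7.26, 8.52 and 8.05 in PN1 hepatocytes, against 5.79 to 7.20 at day 0. The other 2 probes of Hoxa13 were detected on 2 and 0 of the 42 arrays and correlated with it at 0.02 and -0.21 over the arrays, which share normalisation, so the level rests on 1 probe. Single arrays also detected Hoxa4 and Hoxd13 in E16 and Hoxc8, Hoxc12 and Hoxd11 in PN1, the last 3 on the same array. Hoxd11, known from the forearm and the kidney, was the only member that differed between the stages, with 5.70, 5.48 and 5.66 in E16, where it was not detected, and 6.59, 7.96 and 6.07 in PN1, where 1 array detected it. It was at least 1.24-fold higher (1.26 ± 0.35 on the log2 scale, adjusted p = 0.00542), where 10.3% of all genes were higher and 13.6% lower, and the difference was 0.71 (adjusted p = 0.0973) without that array.

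Liver genes were read beside the labels of the hepatocyte arrays. All 3 E16 arrays detected Alb, the gene of serum albumin, and Afp, that of alpha-fetoprotein. All 3 PN1 arrays detected Apoa1, Apoa2, Serpina1b, Trf, Ahsg, Vtn and Hnf4a, while Alb, Afp, Apob, Ttr and Cps1 were detected on 0 of them. The PN1 arrays also had the fewest detected probes of all arrays, 8427 to 9287. The reason was not tested, and these values can neither bear out the PN1 label nor speak against it. The summed level of 16 hepatocyte markers was 219621 to 251956 in E16, 41950 to 45050 in PN1 and 3500 to 6482 on the arrays of day 28, where Alb and Afp were not detected. That of 18 blood and erythroid markers was 94569 to 105101 in E16 and 122539 to 124967 in PN1, against 903 to 1314 at day 28, and that of the mesenchyme markers was 814 to 998 and 627 to 710, against 15034 to 28239. The part of these cells in the Hox values was not tested.

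The day 28 cultures, as the mean of the 3 lines, were above E16 hepatocytes in 12 members and below in 0, where 19.7% of all genes were higher and 15.4% lower. Hoxa5 was at least 7.25-fold higher, Hoxd10 at least 7.02-fold (4.39 ± 0.24 on the log2 scale, adjusted p = 2.47e-15), Hoxb7 at least 6.23-fold and Hoxc6 at least 5.46-fold. Hoxc9 was at least 2.49-fold higher, Hoxa9 2.31-fold, Hoxd9 2.13-fold, Hoxc10 1.89-fold, Hoxa2 1.52-fold and Hoxb2 1.42-fold, all of them lower bounds. Hoxb5 was called with no bound above 1 (adjusted p = 1.8e-05). Hoxd13, detected on 1 E16 array, was at 1.07 (adjusted p = 0.00574), and the difference was 0.73 (adjusted p = 0.0867) without the third E16 array and under 2-fold also without the first E16 array (0.97), the first GPSC-A (0.88) or the first GPSC-B array (0.85) of day 28. The replicate block added Hoxb6 (1.13, adjusted p = 0.00217).

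Of the partners of Hox proteins, Meis1 rose from background alongside the posterior genes. It lay at 4.78, 5.36 and 5.88 (lowest, median and highest) at day 0, 4.52, 4.58 and 5.11 at day 2, 4.70, 5.60 and 7.51 at day 7, 9.01, 9.87 and 10.11 at day 14 and 7.95, 8.57 and 8.74 at day 28. From day 14 every array lay above every array of day 0, with a change of 4.39 ± 0.20 (adjusted p = 2.24e-16) at day 14 and 3.18 ± 0.20 (adjusted p = 9.05e-14) at day 28. Of 9 tested TALE genes 1 fell at day 2, where 3.95% of all genes did, Meis2 (-1.999 ± 0.27, adjusted p = 2.1e-06). At day 14, where 12.7% of all genes were higher, 3 were, namely Meis1, Meis2 (2.39 ± 0.27) and Pbx3 (1.26). At day 28, where 17.2% of all genes were higher and 16.1% lower, Meis1 was higher and Tgif1 (-1.68) and Tgif2 (-2.02), repressors of the same family, were lower. Meis1, at least 3.22-fold, and Meis2 (-1.58) were also lower in GPSC than in ES cells at day 7, and Pbx4 was at least 2.93-fold higher.

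Of the caudal and other ParaHox genes, Cdx2 alone was tested. Cdx2, an activator of central and posterior Hox genes in the embryo, was higher at day 7 than at day 0 by 1.62 ± 0.21 (adjusted p = 6.72e-07) with a lowest, median and highest level of 5.79, 7.26 and 8.62, and lower in GPSC than in ES cells that day (-1.95 ± 0.32, adjusted p = 7.05e-05). It was not called at days 14 or 28. Cdx1, Cdx4, Gsx1, Gsx2 and Pdx1 were detected on 0 arrays.

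Several genes of the retinoic acid pathway were above day 0 at day 14. Cyp26a1, the enzyme that clears retinoic acid, rose at day 7 by 4.33 ± 0.23 (adjusted p = 1.38e-14) and was 2.64 above day 0 at day 14. Rarb, a retinoic acid receptor that the acid itself induces, was 3.70 ± 0.28 (adjusted p = 1.11e-11) above day 0 at day 14 and 1.89 ± 0.28 (adjusted p = 1.51e-06) at day 28. Of 13 tested members of the list 6 were higher and 1 lower at day 14, where 12.7% and 10.9% of all genes were, with Aldh1a2, which makes the acid, at least 2.6-fold higher, and the binding proteins Crabp1 (1.46) and Crabp2 (1.62) among them. At day 28, where 17.2% of all genes were higher and 16.1% lower, 3 were higher (Crabp2 by 2.69, Rarb, and Rxra by 1.86) and Rarg was lower (-1.10). At day 7 GPSC cells were higher than ES cells in Cyp26a1 (2.26) and Aldh1a3 and lower in Crabp1 (-1.46) and Crabp2 (-1.78).

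**Figure D5:**
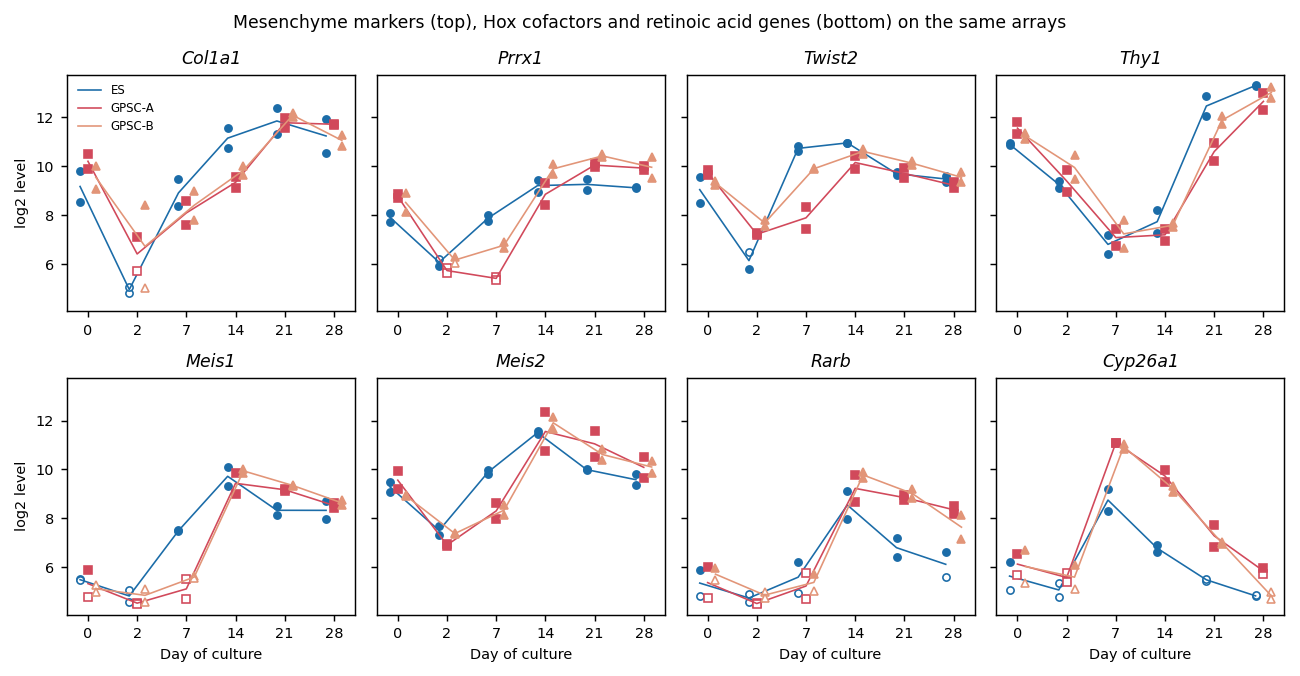
Log2 level on each array by day for 4 mesenchyme markers (Col1a1, Prrx1, Twist2, Thy1), the Hox partners Meis1 and Meis2 and the retinoic acid genes Rarb and Cyp26a1, drawn as in the plot of Hox levels by day. The 4 markers drop at day 2, Meis1 and Rarb rise between days 7 and 14, and Cyp26a1 is high at day 7.

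Of 7 tested genes of posterior axis growth 2 fell at day 2, where 3.95% of all genes did, Wnt3a, at least 2.41-fold, and Wnt5a (-1.90), and 3 were lower at day 28, where 16.1% of all genes were: Fgf8 (-4.85), Fgf4, at least 7.85-fold, and Wnt3a, at least 2.7-fold. The summed level of the 11 genes of this list with a probe was highest at day 7, at 5998 to 10454. It was 2332 to 4377 at day 0 and 1247 to 3650 at day 28. At least 1 array detected 7 of them at day 7 and 5 at day 0. The gene T was not analysed here. Of 8 tested homeobox genes of the head, Otx1 (1.41) and Otx2 (1.94) rose at day 2 and Gbx2 fell (-1.25). Of all genes 1.49% rose and 3.95% fell at that day. At day 28, where 17.2% of all genes were higher, Otx1 (2.37), Dlx1, at least 1.3-fold, and En1 (1.47) were higher and Gbx2 (-5.32) was lower.

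Among genes of chromatin regulators, the Polycomb list was a mixed set that also held the demethylases Kdm6a and Kdm6b. None of its 21 tested genes was called at day 2, where 3.95% of all genes fell and 1.49% rose. At day 7, 3 were lower, where 6.67% of all genes were, at day 14, 4 were lower and 1 higher, where 10.9% and 12.7% were, and at day 28, where 16.1% of all genes were lower and 17.2% higher, 11 were lower and 2 higher (Cbx6 and Ring1), with a median log2 change of -1.01 against 0.03 for all genes. Cbx7 (-4.03), Phc1 (-3.61), Ezh2, the histone methyltransferase of the complex (-2.26), and Kdm2b (-2.17) had the largest changes. Of 10 tested genes of the Trithorax list 0 were called at days 2 and 7. Lower at day 28, against the same 16.1%, were 4: Ash2l (-2.22), Psip1 (-1.93), Dpy30 (-1.71) and Dot1l (-1.26).

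Of 17 tested genes beside the clusters 1 was called at day 2, where 1.49% of all genes were higher and 3.95% lower: Mtx2, next to cluster D, was higher. At day 7, where 6.68% were higher and 6.67% lower, 3 were higher and 1 was lower. Evx1, a homeobox gene at the posterior end of cluster A, was higher by 2.65 ± 0.33 (adjusted p = 2.24e-07), with Mtx2 (1.73) and Nfe2, and Skap2 was lower (-1.42). At day 28, where 17.2% were higher and 16.1% lower, Jazf1 (2.44) and Mtx2 (1.18) were higher and Snx11 (-1.11) and Cbx5 (-1.71) lower. The non-coding Hottip of cluster A, with 1 probe, and Hoxd3os1 of cluster D, with 2 probes, were detected on 0 arrays.

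Further probes of the same genes tracked the ones used in some cases and not in others. Of 19 further probes, 5 correlated with the probe used over the 42 arrays, which share their normalisation: 0.972 for Hoxb7, 0.963 for Hoxa9, 0.891 for Hoxc10, 0.865 for Hoxa2 and 0.806 for Hoxb1. The other 14 correlated at -0.21 to 0.30 and were detected on 0 to 2 arrays, among them the second probe of Hoxd9, at 0.25 and detected on 0 arrays. Where the second probe tracked, its changes could be smaller: Hoxa9 was at -0.76 at day 2 and Hoxc10 at 0.71 at day 28, both under 2-fold.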

How the data were processed

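RNA of 42 samples was labelled and hybridised to Illumina mouse bead arrays, per the labels, and the submitters' processing notes name GenomeStudio without a version. The authors deposited a non-normalized table with an intensity (signal) and a detection p-value per probe and array. A second deposited table holds processed signal values on a linear scale whose normalisation is not stated, used only as an alternative.

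With limma 3.58.1 in R 4.3.3, neqc (normexp with the detection p-values, quantile normalisation, log2 with an offset of 16) was followed by 1 model of the 20 groups with 22 residual degrees of freedom and Benjamini-Hochberg adjustment over 10831 genes. Of 45281 probes, 34885 had 1 symbol in the platform annotation, 18 several and 10378 none. Genes were represented by their brightest probe and tested when detected (p under 0.01) on at least 2 arrays. Called means adjusted p under 0.05 and at least 2-fold. SE is that of the fitted log2 change. The fit was tested on simulated data with noise drawn independently for each array. That simulation does not cover arrays that deviate together.

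Same-numbered arrays of a line deviated together (correlations of 0.245 to 0.644 over 15 pairs of days in each line, none under 0.1), so the numbers pair arrays within lines; in hepatocytes they did not (0.00662 to 0.0792). Blocked values stand where they change a call. The members and gene lists were chosen with earlier results of these data known. All members are accounted for by name. Other genes named by rule are up to 4 per list with the largest called change at day 28, and Cdx1, Cdx2, Cdx4, Cyp26a1, Rarb, Meis1, Meis2, T and Evx1; the rest were chosen after their values were seen, as were comparisons with day 2, between days 7, 14 and 28, of single lots, and of the day 7 changes. Sequences come from RefSeq; the deposited tables give no genome build.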

Additional observations from a re-analysis of the deposited data

Results flagged for a closer look

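The change from day 0 differed between GPSC and ES cells in 9 members at day 7 and in 3 at day 28, by an interaction term in the limma model with adjustment over all 10831 genes. The day 7 interaction was added after the values had been seen, and both days share the untreated arrays.

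At day 7 the difference of the log2 changes, GPSC minus ES, was -3.28 ± 0.57 for Hoxb6 (adjusted p = 0.000422), -3.23 ± 0.41 for Hoxd10 (adjusted p = 9.34e-06), -2.99 ± 0.46 for Hoxb7 (adjusted p = 9.47e-05) and -2.97 ± 0.47 for Hoxc6 (adjusted p = 0.000111). It was -2.65 ± 0.53 for Hoxb5 (adjusted p = 0.00222), -2.64 ± 0.67 for Hoxc10 (adjusted p = 0.0183), -2.61 ± 0.49 for Hoxc9 (adjusted p = 0.000981) and -2.13 ± 0.57 for Hoxa9 (adjusted p = 0.0267). Hoxb1 differed the other way, by 2.64 ± 0.57 (adjusted p = 0.00465).

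At day 28 the difference was -2.09 ± 0.47 for Hoxc6 (adjusted p = 0.00671), -2.02 ± 0.41 for Hoxd10 (adjusted p = 0.00338) and -1.53 ± 0.39 for Hoxa10 (adjusted p = 0.0182), a gene detected on no array of day 0 and on no GPSC array of day 28, so that this value has no bound. Hoxc6 was at -1.55 (adjusted p = 0.111) without the first ES array of day 0, and Hoxa10 lost its call without any one of 5 arrays (-1.37 to -1.63). With replicate numbers as blocks Hoxb5 (-1.80, adjusted p = 0.0134), Hoxc10 (-1.54, adjusted p = 0.0465) and Hoxb2 (1.48, adjusted p = 0.0393) were called too.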

How the results depend on the processing

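No result changed its direction: of 2140 alternatives for 124 results on single genes, 1934 kept the call and 206 lost it, of which 50 came without background correction and 48 from the deposited processed table. In both of these settings a call could be lost through a change under 2-fold alone, with the limma adjusted p under 0.05. Hoxb7 at day 2 was at -0.93 (adjusted p = 2.84e-05) and -0.90 (adjusted p = 2.17e-05). Hoxa10 in GPSC against ES cells at day 28 also passed 0.05 without background correction (adjusted p = 0.0524). A minimum of 4 detected arrays changed no call. Taking the brightest detected probe could change none, since it picked the probe already used for every tested member. Without background correction and with the processed table, in that order, the falls at day 2 numbered 4 and 5 (9 reported), the rises at day 7 1 and 1 (2), rises and falls at day 21 3 and 3 (5) and 1 and 1 (3), rises and falls at day 28 2 and 3 (5) and 1 and 1 (2), rises in ES cells 4 and 4 (9), GPSC-A rises 1 and 1 (3), and GPSC-B rises 2 and 2 (5). GPSC lower at day 28 gave 2 and 1 (8), GPSC higher at day 7 0 and 0 (1), falls in ES cells at day 28 1 and 1 (2), and PN1 above E16 0 and 0 (1). Median scaling gave 3 rises in GPSC-B, 1 fall in ES cells at day 28, 0 higher in GPSC at day 7, 1 lower in GPSC at day 28, 0 for the day 28 interaction (3 reported) and 0 for PN1. A fit of only the groups compared gave 3, 1 (falls in ES cells), 2 (GPSC lower at day 28), 1 (interaction) and 0 (PN1), and no filter on detection gave 1 fall in ES cells. The replicate block gave 5 lower and 1 higher for that interaction and changed no other count by over 1.5 times. At a detection p under 0.05 the mean number detected was 16.2 at day 0, 11 at day 2, 20.3 at day 14, 16.8 at day 21, 17.7 at day 28, 5 in E16 and 5.67 in PN1.

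Leaving out 1 array at a time gave 0 to 1 rises and 8 to 11 falls at day 2, 2 to 3 and 3 to 4 at day 7, 5 to 7 and 1 at day 14, 4 to 5 and 2 to 3 at day 21, and 4 to 5 and 2 at day 28. It gave 5 to 9 and 1 to 2 in ES cells at day 28, 2 to 3 and 2 to 3 for GPSC-A, and 2 to 6 and 2 for GPSC-B. GPSC against ES had 0 to 1 higher and 10 lower at day 7, and 0 higher and 2 to 8 lower at day 28, and the day 28 interaction 0 to 1 and 1 to 4. Day 28 against E16 had 11 to 12 and 0 to 1, and PN1 against E16 0 to 3 and 0. PN1 had 0 without its replicate 2 and 3 without its replicate 3.

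Median scaling also moved the split of all called genes, higher and lower: from 161 and 428 to 62 and 471 at day 2, from 1371 and 1177 to 1708 and 923 at day 14, from 1672 and 1472 to 1391 and 697 for GPSC-A and from 1828 and 1658 to 992 and 1449 for GPSC-B, both at day 28, from 460 and 459 to 422 and 169 for GPSC against ES at day 7, from 2134 and 1668 to 3608 and 845 for day 28 against E16 and from 1117 and 1473 to 301 and 1354 for PN1 against E16. The median change of all genes then reached 0.57 for day 28 against E16, 0.25 for GPSC against ES at day 7 and -0.17 for PN1 against E16.

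With 2 or 3 arrays a group, the number of arrays limits the precision, and for members near background a bound, or no fold above 1, is all that the arrays give. A fit with the slide as a block was not run, since the file headers used here name no slide.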
